A study of Homo sapiens with 13 samples.

Results

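The genes described are 9 that encode helicases linked to the removal of R-loops, namely DHX9, AQR, DDX5, DDX19A, DDX21, DDX23, DDX41, WRN and PIF1, out of 19970 protein-coding genes on chromosomes 1 to 22 and X. They were chosen by name, and a peak was counted for a gene when at least 1 bp of it overlapped the gene's RefSeq span or the 2 kb on either side. In DRIP-seq, genomic DNA that carries hybrids of DNA and RNA is pulled down with the S9.6 antibody and sequenced, here from U2OS cells, a human osteosarcoma line. The 3 groups were cells given a control siRNA (siCtrl, labelled WT), an siRNA against REXO4 (siREXO4) or an siRNA against RNaseH1 (siRNaseH1), with 3 S9.6 libraries and 1 input library each, and 1 IgG library from siCtrl cells. The time between transfection and harvest was not known here. The series compares where in the genome loss of either nuclease alters hybrids. Each group is represented by 1 peak list called on its merged S9.6 libraries, so no value below has a replicate error and no test between groups was possible.

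An R-loop is a DNA-RNA hybrid in which a transcript pairs with its template and displaces the other DNA strand. RNaseH1 cuts the RNA of such hybrids, while helicases separate the RNA from the DNA and leave it intact. DHX9 is a DExH-box helicase that unwinds RNA, DNA and hybrids. AQR, or aquarius, is a spliceosomal helicase that binds introns. DDX5, DDX21, DDX23 and DDX41 are DEAD-box proteins with roles in transcription and splicing, in ribosomal RNA synthesis, in the U5 snRNP, and in splicing and DNA sensing. DDX19A is a close relative of the mRNA export factor DDX19B, WRN is the RecQ helicase mutated in Werner syndrome, and PIF1 unwinds hybrids and G-quadruplexes. The peaks lie on the genes that encode these proteins. They do not measure the transcripts or the proteins, so they check neither the knockdowns nor helicase activity.

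The peaks with the most fragments at DHX9, DDX5 and DDX21 in the knockdown lists lay on annotated starts. For each of these genes 1 start window is printed, with 1 from DDX23 and 1 from AQR, whose peaks lay elsewhere, to make 5. Each runs 5′ to 3′ on the gene's strand, from 250 bases before to 50 after an annotated start, in RefSeq GRCh38.p14 coordinates, which are those of hg38 on these chromosomes. Capitals mark runs of 4 or more G or C. DHX9 held a start peak in both knockdown lists and not in siCtrl, DDX21 and DDX5 held one in all 3 lists, DDX23 held one in siRNaseH1 only, and AQR held none.
DHX9, chr1:182839097-182839396, plus strand: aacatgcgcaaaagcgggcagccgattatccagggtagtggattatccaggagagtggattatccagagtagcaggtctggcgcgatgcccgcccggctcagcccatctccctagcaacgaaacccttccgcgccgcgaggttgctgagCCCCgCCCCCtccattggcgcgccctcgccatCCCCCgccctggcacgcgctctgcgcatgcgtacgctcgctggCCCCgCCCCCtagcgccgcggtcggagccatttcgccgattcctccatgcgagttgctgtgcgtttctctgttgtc
DDX21, chr10:68955920-68956219, plus strand: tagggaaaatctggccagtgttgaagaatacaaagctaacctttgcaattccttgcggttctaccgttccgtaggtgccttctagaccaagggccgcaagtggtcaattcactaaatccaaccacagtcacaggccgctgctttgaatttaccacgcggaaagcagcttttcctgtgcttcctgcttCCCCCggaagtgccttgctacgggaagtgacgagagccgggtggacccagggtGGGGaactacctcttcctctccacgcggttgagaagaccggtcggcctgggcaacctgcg
DDX5, chr17:64505888-64506187, minus strand: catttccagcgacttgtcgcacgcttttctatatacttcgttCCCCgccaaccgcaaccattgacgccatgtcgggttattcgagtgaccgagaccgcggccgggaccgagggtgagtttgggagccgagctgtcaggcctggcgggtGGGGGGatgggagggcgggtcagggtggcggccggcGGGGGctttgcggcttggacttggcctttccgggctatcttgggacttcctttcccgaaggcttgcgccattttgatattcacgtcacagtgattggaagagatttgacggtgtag
DDX23, chr12:48852114-48852413, minus strand: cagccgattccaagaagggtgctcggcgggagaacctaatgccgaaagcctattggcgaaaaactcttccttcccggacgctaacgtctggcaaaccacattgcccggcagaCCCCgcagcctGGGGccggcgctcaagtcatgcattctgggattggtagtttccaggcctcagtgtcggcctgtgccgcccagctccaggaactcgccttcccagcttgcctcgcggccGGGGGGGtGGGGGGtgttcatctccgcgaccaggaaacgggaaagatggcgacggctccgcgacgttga
AQR, chr15:34969693-34969992, minus strand: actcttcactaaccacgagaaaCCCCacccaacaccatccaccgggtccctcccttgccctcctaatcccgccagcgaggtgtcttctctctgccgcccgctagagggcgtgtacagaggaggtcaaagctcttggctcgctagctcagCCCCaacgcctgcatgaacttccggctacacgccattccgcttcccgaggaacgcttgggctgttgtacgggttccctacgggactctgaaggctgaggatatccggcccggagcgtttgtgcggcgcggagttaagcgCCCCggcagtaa
The table gave windows for 8 of the 9 genes, 11 in all, and WRN did not match. A GGGG run was present in 6 of these 11 windows and a CCCC run (GGGG on the other strand) in 8, against 75.1% and 73.7% of all 34961 windows in the table. For all windows on a siRNaseH1 peak, as 9 of these 11 were, the shares were higher, at 88.4% and 86.4%. The DHX9 window held 5 CCCC runs and no GGGG run, with a GC skew, (G - C)/(G + C), of -0.14. The DDX5 window printed above held 2 GGGG runs with a skew of 0.17, and the other 2 DDX5 windows, upstream of it, held 4 and 3 with skews of 0.25 and 0.01. All 3 lay wholly within the start peak of each knockdown list, as did the DHX9 window, so the windows under these peaks ran from below to above the all-window median skew of 0.012. The printed DDX21 window had a GC content of 55.3% and a skew of -0.02, with 76 of its 300 bases in the siCtrl peak. The start peak's summits lay outside it in all 3 lists. A second DDX21 window, chr10:68956397-68956696, is not printed and lay wholly within the start peak of all 3 lists. It had a GC content of 67.3% and a skew of 0.09. The windows of DDX41 and DDX19A, which also held start peaks, are not printed. The DDX41 window held 1 GGGG run and no CCCC run, with a skew of -0.05. The DDX19A window held no run of either kind, with a skew of 0.20. AQR, with no start peak, had a skew of -0.15, close to that of DHX9. Of the 11 windows, 9 lay on a siRNaseH1 peak. Their GC content ran from 55.3 to 67.3%, below the median of 68.7% for all windows on a siRNaseH1 peak. The windows of AQR (61.7%) and PIF1 (54.7%), which lay on no peak, were within or just under that range.

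The 9 genes held 5 peaks in siCtrl, 14 in siREXO4 and 36 in siRNaseH1, out of 4458, 12687 and 20954 peaks on these chromosomes. From siCtrl to siREXO4 the members' count was 2.8 times as high and the whole list 2.85 times as long, so the larger siREXO4 count was no more than that of the list. For siRNaseH1 the members' count was 7.2 times that of siCtrl and the list 4.7 times as long. A peak was present at 3 of the 9 genes in siCtrl (DHX9, DDX5 and DDX21), at 5 in siREXO4 (these and AQR and DDX41) and at 7 in siRNaseH1 (also DDX19A and DDX23). Over all protein-coding genes the shares with a peak were 12.0%, 33.7% and 39.2%, and over the 14395 genes with a span between those of DDX41 and WRN, the shortest and the longest member, they were 11.9%, 35.4% and 42.1%. The members' counts correspond to 33.3%, 55.6% and 77.8%. DHX9 alone gave 2 of the 5 siCtrl peaks, 7 of the 14 siREXO4 peaks and 16 of the 36 siRNaseH1 peaks. When only the 4458 peaks with the lowest p were kept in each list, 5, 6 and 12 peaks were left at the 9 genes, on 3, 4 and 5 genes. DDX41 was among the 4 genes in siREXO4 and not among the 5 in siRNaseH1. The shares over all protein-coding genes at that length were 18.6% for siREXO4 and 16.9% for siRNaseH1.

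**Figure D1:**
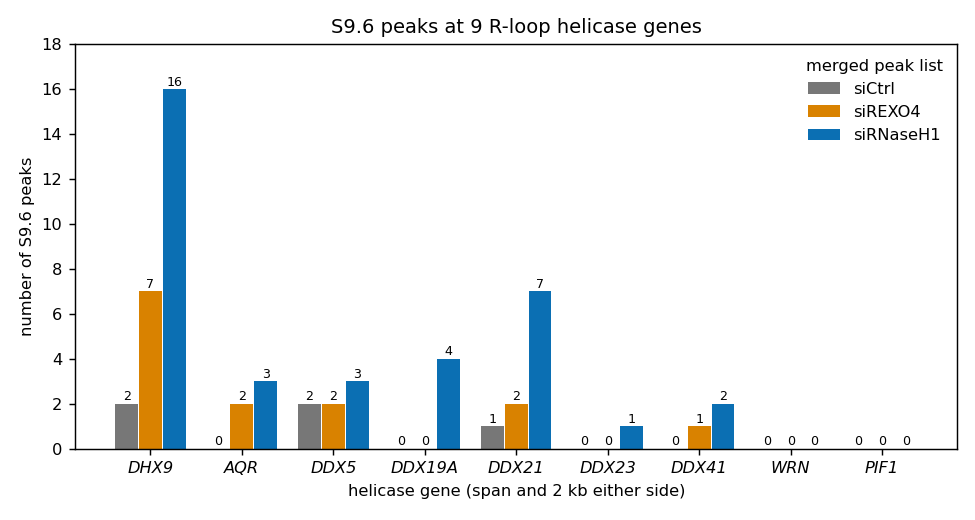
Number of S9.6 peaks (y axis) at each of the 9 helicase genes (x axis) in the 3 merged lists. DHX9 has the most peaks in both knockdown lists, with 7 and 16, and WRN and PIF1 have 0 in all 3.

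Knockdown peaks that no siCtrl peak overlapped, here termed gained, numbered 9 in siREXO4, at DHX9, AQR, DDX21 and DDX41, and 31 in siRNaseH1, at 7 genes. Of all peaks in the 2 lists, 85.5% and 90.3% were gained, against 9 of 14 and 31 of 36 at the members. The shares of all protein-coding genes with a gained peak were 31.3% and 37.6%. Of the 9 siREXO4 gained peaks, 7 overlapped a siRNaseH1 gained peak, 4 of them at DHX9 and 1 each at AQR, DDX21 and DDX41. Over all siREXO4 gained peaks the share was 48.9%. The 4 genes with such peaks (44.4% of 9) compare with 20.8% of all protein-coding genes. From the siRNaseH1 side, 7 of 31 gained peaks overlapped a siREXO4 gained peak, against 28.0% of all siRNaseH1 gained peaks. Both gained sets use the same siCtrl list. Limited to equal list length, 3 siREXO4 and 7 siRNaseH1 peaks were gained and 2 were gained in both. Of all peaks kept at that length 75.0% and 75.6% were gained, and 49.1% of the siREXO4 gained peaks overlapped a siRNaseH1 gained peak.

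The depth behind each peak was recovered from its fold enrichment and p-value as a whole number of fragments at the summit and a local background. The lowest background of a list, its genome-wide expected coverage, was 1.28, 1.41 and 1.36 fragments for siCtrl, siREXO4 and siRNaseH1. The smallest number of fragments at any peak was 7 in each list. A site without a peak may therefore still carry fragments. Of the gained peaks at the 9 genes, 3 of 9 in siREXO4 and 18 of 31 in siRNaseH1 had at least 2 times the coverage of the smallest siCtrl peak at the lowest background, after scaling each list by its lowest background. The shares over all gained peaks were 37.9% and 58.0%, so the members' counts were near those of the lists. Intervals on fragments are exact 95% Poisson intervals. They cover counting error only, and neither the treatment of duplicate reads nor the spread between the 3 merged libraries is known.

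DHX9, gene ID 1660, lies on the plus strand of chromosome 1 from 182839347 to 182887982 and was the member with the most peaks. DHX9 was among the 21 of all protein-coding genes (0.105%) with 16 or more siRNaseH1 peaks and the 73 (0.366%) with 7 or more siREXO4 peaks. Only 4 of the 13563 protein-coding genes no longer than DHX9 held 16 or more siRNaseH1 peaks (0.0295%), namely DHX9, NOP58, EIF3A and NUFIP2, the last 3 singled out after their values were seen. DHX15, a somewhat longer DExH-box gene also singled out after its values were seen, came close, with 5 siREXO4 and 14 siRNaseH1 peaks, all gained, and 5 gained in both against 4 at DHX9. In siREXO4, 26 of these genes (0.192%) held at least the 7 peaks of DHX9. The strongest DHX9 peak lay on the start, over the whole window printed above. In siREXO4 it ran from 182838975 to 182840678 with a fold of 24.9, which ranked in the top 1.41% of that list, and in siRNaseH1 from 182839014 to 182840752 with a fold of 13.4, in the top 4.61%. No siCtrl peak overlapped it. The summits lay 217 bp and 179 bp into the gene, and 27 bp and 65 bp into DHX9-AS1, an antisense lncRNA that overlaps the DHX9 start. The libraries are not described as stranded, so hybrids of the 2 transcripts cannot be told apart here. There were 59 fragments at the summit in siREXO4 (95% interval 44.9 to 76.1) and 46 in siRNaseH1 (33.7 to 61.4). Per lowest background, the siRNaseH1 value was 0.81 times the siREXO4 value, with an interval of 0.538 to 1.21 that spans 1. The difference between the folds came with a local background of 1.41 fragments in siREXO4 and 2.51 in siRNaseH1.

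The body of DHX9 differed from its start. Only 2 loci held a peak in all 3 lists. The first lay about 5.5 kb into the gene, with 12 fragments for siCtrl, 18 for siREXO4 and 29 for siRNaseH1. Relative to siCtrl these are ratios of 1.36 (0.619 to 3.09) and 2.27 (1.12 to 4.89) per lowest background. Its folds of 3.0, 4.21 and 12.7 differ far more, since the local background was 3.33, 3.52 and 1.36 fragments. The second lay 17.7 kb in, with 9, 15 and 39 fragments and ratios to siCtrl of 1.51 (0.619 to 3.91) and 4.07 (1.94 to 9.57). The siREXO4 values at both loci were thus within counting error of siCtrl, and the siRNaseH1 values were above it. At 1.8, 4.8 and 20.4 kb the knockdown lists shared peaks that siCtrl lacked, with 12, 14 and 16 fragments in siREXO4 and 30, 25 and 31 in siRNaseH1. A further 10 peaks were in siRNaseH1 only. They were spread along the gene, at 7.04, 9.66, 13.8, 28.3, 30.5, 43.4, 44.9, 47.1 and 47.9 kb, with the last 1.99 kb past the gene's end. The one at 43.4 kb had 33 fragments (22.7 to 46.3) and a fold of 11.2, while those at 9.66 and 30.5 kb had 9 fragments each and a fold of 4.24. The only DHX9 peak found in siREXO4 alone lay 40.6 kb in, with 13 fragments. At equal list length, 7 of the 16 siRNaseH1 and 2 of the 7 siREXO4 peaks were left.

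**Figure D2:**
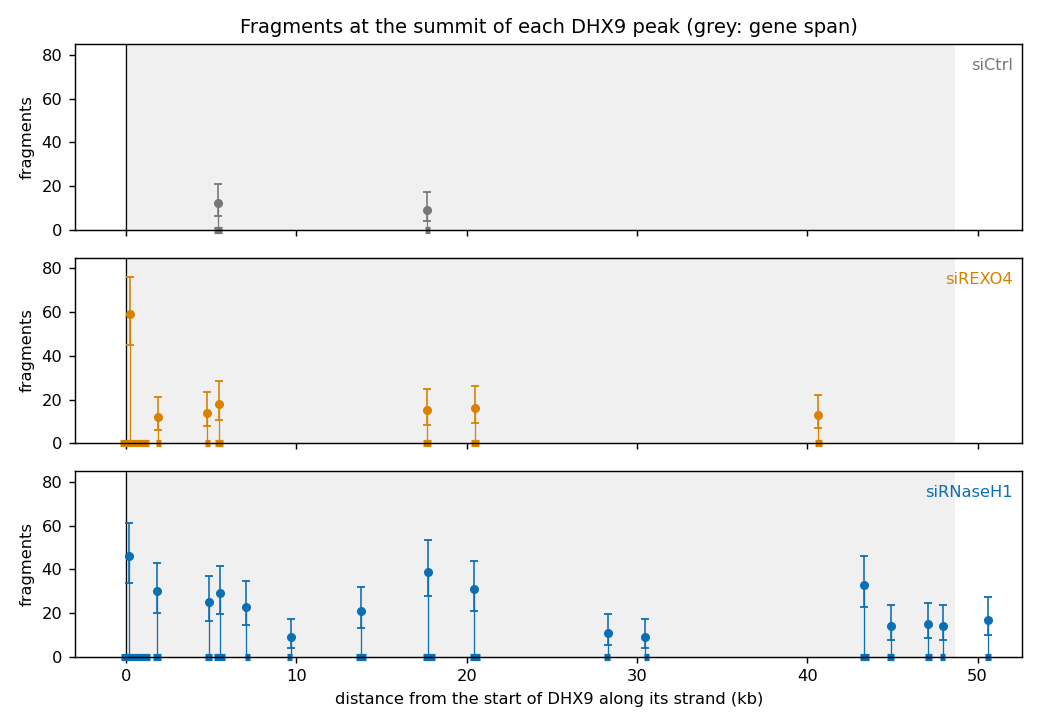
Fragments at the summit of each DHX9 peak (points, y axis; bars are exact 95% Poisson intervals) against distance from the gene's start in kb, in the 3 lists; thick marks on the axis show peak widths and grey the gene span. The start peak has 59 fragments in siREXO4 and 46 in siRNaseH1, and the gene body carries more peaks in siRNaseH1 than in siREXO4 or siCtrl.

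By the rule of nearest highest folds over the 3 lists, the protein-coding genes most like DHX9 were MBD3, CEP95 and DNAJB2, at Euclidean distances of 0.17, 0.233 and 0.249 on log2(1 + fold). The highest folds were 4.39, 24.9 and 13.4 at DHX9 in siCtrl, siREXO4 and siRNaseH1, and 4.24, 22.7 and 14.5 at MBD3, a subunit of the NuRD chromatin complex. The DHX9 values are not from a single site. The siCtrl value is from the peak 17.7 kb into the gene, and the knockdown values are from the start peak. MBD3 held 1, 1 and 3 peaks against 2, 7 and 16 at DHX9, so the likeness is in the top fold and not in the number of peaks. CEP95 shares its leading peak with DDX5, described next. This likeness rests on 3 values per gene.

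DDX21, gene ID 9188, lies on the plus strand of chromosome 10 from 68956170 to 68985068 and carried the strongest peak of the 9 genes. The start peak was present in all 3 lists, with summits within 32 bp of each other, 243, 216 and 211 bp into the gene in siCtrl, siREXO4 and siRNaseH1. It was 731, 1180 and 1504 bp wide in the same order. The summit held 35 fragments (24.4 to 48.7) in siCtrl, 89 (71.5 to 110) in siREXO4 and 207 (180 to 237) in siRNaseH1, and the 3 intervals do not overlap. The ratios to siCtrl were 2.3 (1.54 to 3.51) and 5.56 (3.87 to 8.2), and the siRNaseH1 value was 2.42 times the siREXO4 value (1.88 to 3.13). The folds were 8.31, 19.9 and 47.5, in the top 3.61%, 2.25% and 0.401% of their lists. The order is the same on both scales, since the local background was alike, at 3.33, 3.52 and 3.37 fragments. Inside the gene, 1 siREXO4 peak 10.4 kb in (12 fragments) overlapped a siRNaseH1 peak (15 fragments). Another 4 intragenic siRNaseH1 peaks, at 7.73, 14.5, 19.9 and 22 kb, had 10 to 18 fragments, and 1 lay 1.9 kb upstream with 17. At equal list length 1 peak was left in each list.

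DDX5, gene ID 1655, is a short gene on the minus strand of chromosome 17 from 64498254 to 64506866 and also held a start peak in all 3 lists. Its summit had 21 fragments (13.0 to 32.1) in siCtrl, 108 (88.6 to 130) in siREXO4 and 103 (84.1 to 125) in siRNaseH1. Both knockdown values were above siCtrl, at 4.66 (2.9 to 7.83) and 4.61 (2.86 to 7.77) times per lowest background. They did not differ beyond counting error, with a siRNaseH1 to siREXO4 ratio of 0.99 (0.749 to 1.31). The folds of 21.4 in siREXO4 and 13.4 in siRNaseH1 again came with unequal local backgrounds, of 4.1 and 6.75 fragments. The summits were 14 and 30 bp from the third annotated start, whose window is printed above, and 111 bp from it in siCtrl. In both knockdown lists, at widths of 1642 and 1808 bp, the peak covered all 3 annotated DDX5 start windows and reached into CEP95, a gene on the plus strand that overlaps the DDX5 start. The siCtrl peak of 671 bp did not reach CEP95.

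A second peak counted for DDX5 in all 3 lists lay 1.39 to 1.46 kb past the gene's end, within the spans of POLG2 and MILR1. Its summits were 190 to 258 bp into POLG2, which encodes the accessory subunit of the mitochondrial DNA polymerase. It had 17, 47 and 69 fragments, with ratios to siCtrl of 2.5 (1.41 to 4.65) and 3.82 (2.22 to 6.92). Its position at the POLG2 start means that it cannot be assigned to DDX5. The rule counted it through the 2 kb flank, just outside which lay another siREXO4 peak, 2.01 kb from the gene, with a fold of 3.4. Inside DDX5 the only other peak was in siRNaseH1, 6.46 kb from the start, with 12 fragments and a fold of 4.24.

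**Figure D3:**
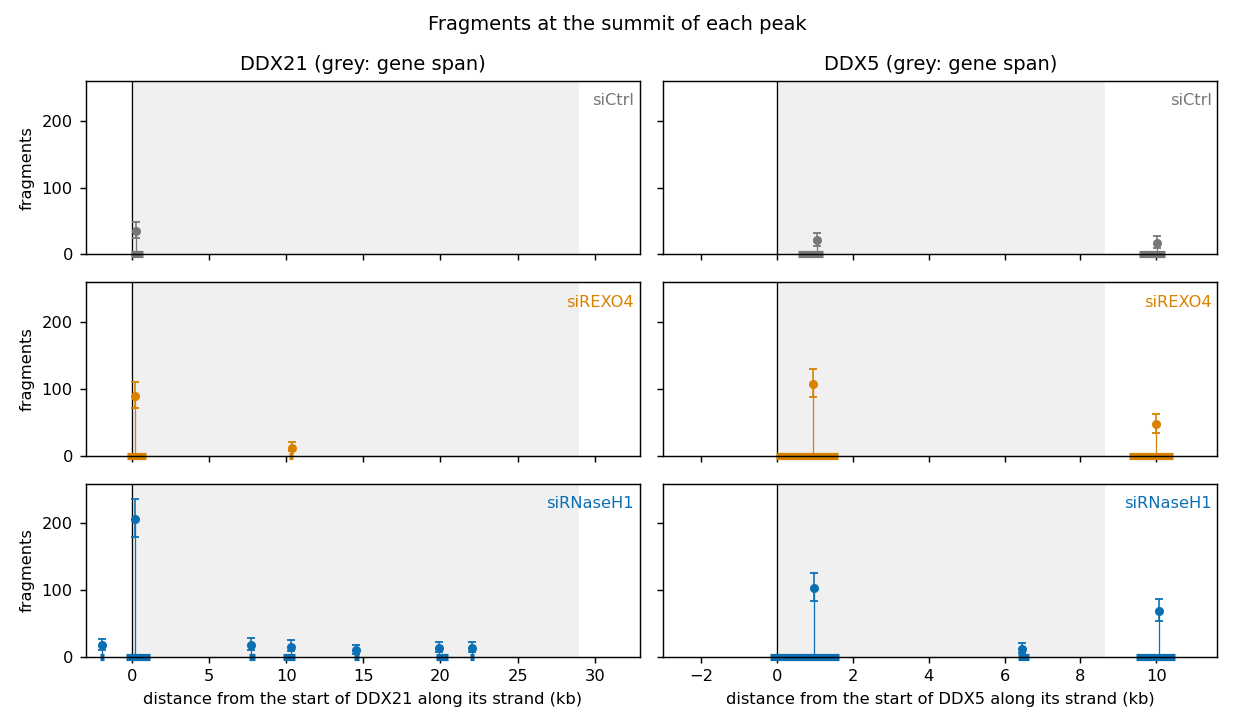
Fragments at the summit of each peak (points, y axis; bars are exact 95% Poisson intervals) against distance from the start of DDX21 (left) and DDX5 (right) in kb, by list; thick marks show peak widths and grey the gene span. The DDX21 start peak goes from 35 to 89 and 207 fragments, while the DDX5 start peak has 21, 108 and 103.

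The other members with peaks had none in siCtrl. DDX41, gene ID 51428, on the minus strand of chromosome 5 from 177511577 to 177516961, held a start peak in both knockdown lists with summits 5 bp apart, 84 and 79 bp into the gene. It had 19 fragments in siREXO4 (11.4 to 29.7) and 25 in siRNaseH1 (16.2 to 36.9), with folds of 5.09 and 5.15, and a ratio of 1.37 (0.723 to 2.62). A further siRNaseH1 peak, with 17 fragments, lay 1.56 kb past the end of DDX41 and inside DOK3. At equal list length the DDX41 start peak was left in siREXO4, and no DDX41 peak was left in siRNaseH1. DDX23, gene ID 9416, on the minus strand of chromosome 12 from 48829756 to 48852163, held a single peak, in siRNaseH1, from 48851728 to 48852255 on its start. It had 26 fragments (17.0 to 38.1) and a fold of 8.46, and also lies on LOC105369755, a lncRNA that overlaps the DDX23 start. The DDX23 peak was left at equal list length.

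DDX19A, gene ID 55308, on the plus strand of chromosome 16 from 70346903 to 70373383, held 4 peaks in siRNaseH1 and none in siREXO4 or siCtrl. Of these, 2 touched the start window, with summits 383 bp upstream and 155 bp into the gene and 11 and 25 fragments. The upstream summit lay 227 bp into DDX19A-DT, a lncRNA on the minus strand, so that peak cannot be assigned to DDX19A alone. The third lay 933 bp in with 23 fragments. The fourth, with 18 fragments, had its summit 2.37 kb past the gene's end, inside ST3GAL2, and was counted because its edge reached the flank. At equal list length 1 of the 4 peaks was left. DDX19A has a near-identical neighbour, DDX19B, 11598 bp away, and how reads that map to both were treated was not known here, so these values are uncertain. By the same rule DDX19B had 1, 2 and 4 peaks, with highest folds of 6.37, 20.7 and 27.7. The siCtrl peak, with the fold of 6.37, lay in AARS1, outside the span of DDX19B, and was counted through the flank.

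AQR, gene ID 9716, on the minus strand of chromosome 15 from 34851782 to 34969742, differed from the other members with peaks in that all of its peaks lay inside the gene and none on the start. It held 2 peaks in siREXO4, 19.8 and 43.9 kb from the start, and 3 in siRNaseH1, at 23.7, 44.0 and 70.8 kb. The locus near 44 kb was shared, with 10 and 14 fragments and a ratio of 1.45 (0.601 to 3.66). All 5 AQR peaks had 10 to 14 fragments and folds between 3.95 and 5.52. None was left at equal list length.

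WRN, gene ID 7486, on chromosome 8 from 31033810 to 31176138, is the longest of the 9 genes and held no peak in any list. The nearest peaks of the siCtrl, siREXO4 and siRNaseH1 lists lay 76.2, 182 and 221 kb away, with folds of 4.5, 3.63 and 10.9. PIF1, gene ID 80119, on the minus strand of chromosome 15 from 64815632 to 64827062, held none either. The nearest peaks there were at 93.1, 14.3 and 14.8 kb, with folds of 4.98, 3.56 and 7.84. The lists do not tell whether hybrids were absent or below the call at these genes.

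**Figure D4:**
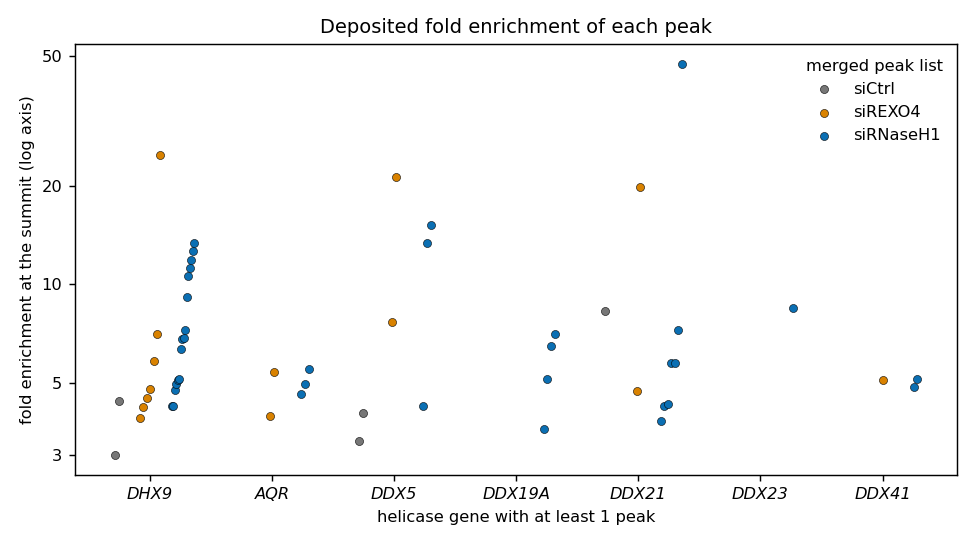
Deposited fold enrichment of every peak (points, log y axis) at the 7 helicase genes with a peak (x axis), coloured by merged list. The highest values are 47.5 at DDX21 in siRNaseH1 and 24.9 at DHX9 in siREXO4, and AQR and DDX41 stay under 6.

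A peak touched an annotated start window of 2 of the 8 genes in the promoter table in siCtrl, 4 in siREXO4 and 6 in siRNaseH1. Over the 15811 protein-coding genes in that table the shares were 1.95%, 17.1% and 17.6%. The 6 genes were DHX9, DDX5, DDX19A, DDX21, DDX23 and DDX41. In the knockdown lists, each further peak inside DHX9, DDX5 and DDX21 had fewer fragments than the start peak of the same gene and list.

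Each knockdown was also set against siCtrl at the 5 loci with a peak in all 3 lists. They were 2 in the body of DHX9, the DDX21 start, the DDX5 start, and the locus at the POLG2 start. The last was counted for DDX5 through the flank and cannot be assigned to it. The interval of the siREXO4 to siCtrl ratio lay above 1 at 3 of the 5 loci, the starts of DDX5, DDX21 and POLG2. That of the siRNaseH1 to siCtrl ratio lay above 1 at all 5. Of all knockdown peaks that overlapped a siCtrl peak, 24.1% were above 1 and 1.18% below it in siREXO4, and 37.0% above and 2.45% below in siRNaseH1, with median ratios of 1.11 and 1.51. Both sets of ratios use the same siCtrl values.

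The 2 knockdowns were set side by side at the 12 loci that held a peak in both lists. The siRNaseH1 value per lowest background was the higher one at 10 of them, with a median ratio of 1.59 and a range of 0.81 to 2.7. Over all shared peaks the ratio was above 1 at 74.0%. The interval lay above 1 at 5 loci (3 at DHX9, 1 at DDX21 and the one at the POLG2 start) and below 1 at none. Among all 6747 siRNaseH1 peaks that overlapped a siREXO4 peak, the median ratio was 1.3, the interval lay above 1 at 19.9% and below 1 at 3.01%. Relative to that median, 2 of the 12 intervals were higher, the DHX9 locus at 17.7 kb and the DDX21 start, and 1 was lower, the DHX9 start, against 7.83% and 7.80% of all shared peaks. Over all shared peaks, those on a start window had a median ratio of 1.27 and the others 1.32. The interval lay above 1 at 26.6% of the start-window peaks and 16.7% of the others, and below 1 at 3.48% and 2.78%. The others are not limited to gene bodies and were not paired with a start peak of the same gene. Whether other genes show the contrast between the start and the body of DHX9 was thus not tested.

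**Figure D5:**
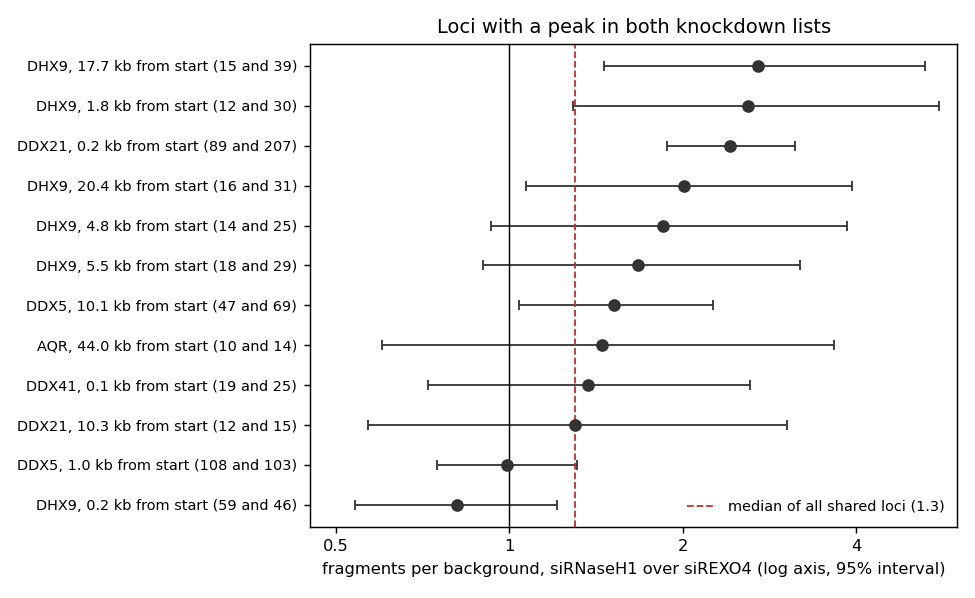
Ratio of fragments per lowest background, siRNaseH1 over siREXO4 (log x axis, bars are 95% intervals for counting error), at the 12 loci with a peak in both lists; labels give the gene, the distance from its start and the fragments in siREXO4 and siRNaseH1. The ratios run from 0.81 at the DHX9 start to 2.7 at 17.7 kb, and the dashed line marks the median of 1.3 over all shared peaks.

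Peaks were also found at other helicase genes. Of 27 further helicase genes linked to R-loops, 7 held a peak in siCtrl (25.9%), 18 in siREXO4 (66.7%) and 23 in siRNaseH1 (85.2%). Those named by highest fold were DDX19B (described above), DDX17, a paralogue of DDX5 (20.3 in siREXO4 and 10.2 in siRNaseH1), the G-quadruplex helicase gene DHX36 (18.6 and 31.2) and RECQL5 (16.4 and 25.9). Of all 47 other DDX and DHX genes, 11 of which are also among the 27, a peak was present at 10, 29 and 35 (21.3%, 61.7% and 74.5%). DDX59 had the highest siREXO4 fold of these, 22.5, and 16.2 in siRNaseH1, and DDX39A had 13.7 and 17. The median number of siRNaseH1 peaks was 3 at the 9 genes, 2 at the 27, 1 at the 47 and 0 over all protein-coding genes. Of 16 RNase H and other hybrid-related genes, 5, 8 and 9 held a peak, and those named by the same rule were ALYREF (9.4 and 18.7), BRCA1 (9.08 and 12.5), SRSF1 (8.67 and 22.4) and TOP1 (5.02 and 16.1). The background shares cover all protein-coding genes, expressed or not, since expression was not analysed here.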

How the data were processed

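The data were 1 DRIP-seq peak list per siRNA in U2OS cells. The authors called each on the merged S9.6 libraries of its group (3 each), per the labels. Input and IgG libraries were not analysed here. MACS2 2.1.0.20150731, deepTools 3.5.1, SAMtools 1.17, Cufflinks, HISAT2 2.2.1, Trim Galore 0.6.10 and hg38 are named, without roles, in the submitters' processing notes. The control library of the peak calls and the handling of duplicate or multiply mapping reads were not known here. The lists hold, as deposited by the authors, a fold enrichment (a ratio) at the summit, its −log10 p and −log10 q, and a score. Folds were used within their own list.

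Peaks on chromosomes 1 to 22 and X were joined to RefSeq GRCh38.p14 gene spans. Strand and start windows came from a RefSeq promoter table. Fragments and local background were solved from fold, (fragments + 1) / (background + 1), and p, the upper Poisson tail. Only whole numbers of fragments were tried. For every peak under a −log10 p of 300, the best one gave back the deposited −log10 p to within 0.001. Ratios between lists use the conditional exact 95% interval and cover counting error only. Where several siREXO4 peaks met one siRNaseH1 peak, the one with most fragments was used.

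The members, the gene lists and the naming rule (all members, and per other list the 2 genes with the highest fold in the siREXO4 list and then the 2 highest in the siRNaseH1 list not yet named, the 3 genes nearest to DHX9 in highest folds, and genes at a member's peak) were chosen with earlier results of these data known. Computation used SciPy 1.17.1, pandas 2.3.3 and NumPy 2.4.6 under Python 3.11.15, and plots used Matplotlib 3.10.9. The code was tested on simulated data. Alternatives were stricter peaks, equal list lengths, other flanks, summit position and other overlap rules. Scaling alternatives were added after seeing the data.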

Additional observations from a re-analysis of the deposited data

How the results depend on the processing

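No paired analysis was possible because each transfection has 1 merged peak list and no test was made, and for the same reason no replicate could be left out. Counts that moved by over 1.5 times were these. Requiring a fold of at least 5 left 1 siCtrl peak, on 1 gene (from 5 on 3), and 8 siREXO4 peaks (from 14). Requiring a −log10 q of at least 5 also left 1 siCtrl peak, on 1 gene. At equal list length 6 siREXO4 and 12 siRNaseH1 peaks were left (from 14 and 36), with 3 and 7 gained (from 9 and 31) and 2 gained in both (from 7). The order of the 3 lists by number of peaks at the members was the same with stricter peaks, equal list length, other flanks and summit position. No flank, a 5 kb flank, summit position, 50% reciprocal overlap and a 500 bp tolerance moved no count by over 1.5 times. Without flanks the peaks numbered 4, 13 and 30. With unscaled fragments, 4 of the 12 shared loci had an interval above 1 (from 5), and relative to the median ratio of all shared peaks 2 did. The peaks with 9 to 14 fragments are those whose presence in one list and absence in another says least.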
